A study of Rattus norvegicus with 325 samples.

Results

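The slow and the fast troponin genes of skeletal muscle were described across 4 muscles and 7 ages of the rat. The 6 genes were taken by symbol from the count files, which list 17315 distinct gene symbols, and they are Tnnc1, Tnni1 and Tnnt1 (the slow forms of troponin C, I and T) and Tnnc2, Tnni2 and Tnnt3 (the fast forms). Each of the 6 stood on a single line of every file, and all 6 passed the filter on low counts in all 4 muscles. Member counts ranged from 10 reads of Tnni2 in a soleus library to 856312 reads of Tnnt3. The 6 genes together took between 0.267% and 1.72% of all counts of a library, lowest in soleus and highest in gastrocnemius.

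The animals were male Sprague Dawley rats, an outbred strain, and the labels name no treatment, so that age and muscle are the only factors. Diaphragm, gastrocnemius, soleus and tibialis anterior were sequenced as bulk total RNA from young adults (6 months), from rats of 9, 12, 18 and 21 months, and from old rats (24 and 27 months), in 28 groups of 9 to 13 libraries and 325 libraries in all. Totals per library lay between 17.6 M and 85.3 M counts, with a median of 31.9 M (M, 1e6 counts). All animals of an age were collected on a single day, so age and collection day cannot be told apart. The running numbers in the labels put every gastrocnemius library in a series of its own. The 12-month libraries of the other 3 muscles fall in another series, together with 1 library of 21 months from each of those muscles. Differences of gastrocnemius from other muscles, and of 12 months from other ages in those 3 muscles, thus cannot be told apart from the series. Changes with age within gastrocnemius lie inside its own series. Which libraries share a rat is not in the labels. As bulk samples hold many cells, fewer fibres of a type and less RNA per fibre cannot be told apart in any value given here.

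Troponin sits on the actin filament together with tropomyosin and lets calcium switch contraction on. Troponin C binds the calcium, troponin I holds the filament in the off state at low calcium, and troponin T anchors the complex on tropomyosin. Skeletal muscle makes each subunit from a gene for slow fibres or a gene for fast fibres, so the pairs are widely used as labels of fibre type. Tnnc1 is also the troponin C of heart muscle, whereas the troponin I and T of adult heart come from Tnni3 and Tnnt2. Soleus is the textbook slow postural muscle, tibialis anterior and gastrocnemius are mainly fast, and the diaphragm is mixed and works without rest.

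The labelled muscles were first set beside the markers of their fibres at 6 months. Myh7, the myosin heavy chain of slow fibres, stood in soleus at a median of 47514 CPM (counts for each 1e6 of the scaled library), against 16944 in diaphragm, 7537 in gastrocnemius and 2062 in tibialis anterior. Myh4, the myosin of the fastest fibres, ran the other way, with medians of 8.39 CPM in soleus, 1181 in diaphragm, 52317 in gastrocnemius and 87432 in tibialis anterior. The order of the muscles by these myosins was that of their names as slow, mixed and fast muscles.

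The slow troponins were highest in soleus and lowest in tibialis anterior at 6 months. Tnnt1 ranged from 2111 CPM over a median of 2335 to 2555 in the 12 soleus libraries, from 834 over 1015 to 1211 in the 12 of diaphragm, from 515 over 648 to 889 in the 10 of gastrocnemius, and from 79.0 over 117 to 179 in the 12 of tibialis anterior. Tnni1 ranged from 639 over 694 to 793 CPM in soleus, from 185 over 230 to 268 in diaphragm, from 119 over 172 to 261 in gastrocnemius, and from 24.3 over 36.1 to 56.7 in tibialis anterior. For these genes the soleus libraries lay above, and the tibialis anterior libraries below, every library of the other 3 muscles. Tnnc1 ranged from 105 over 139 to 165 CPM in soleus, from 57.9 over 82.7 to 127 in gastrocnemius, from 51.7 over 67.9 to 77.9 in diaphragm, and from 8.03 over 11.4 to 17.4 in tibialis anterior. Diaphragm and gastrocnemius, the neighbours in the middle of the order, overlapped in all 3 slow genes, and Tnnc1 did not differ between them beyond the spread (log2 difference of gastrocnemius from diaphragm 0.30, SE 0.16, 95% interval -0.01 to 0.61, limma adjusted p = 0.0741).

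The fast troponins were highest in gastrocnemius, followed by tibialis anterior and diaphragm, and lowest in soleus. Tnnt3 ranged from 11507 CPM over a median of 12461 to 15096 in gastrocnemius, from 9033 over 10170 to 10885 in tibialis anterior, from 2907 over 3635 to 4238 in diaphragm, and from 3.78 over 79.9 to 259 in soleus. Tnnc2 ranged from 2180 over 2804 to 3097 CPM in gastrocnemius, from 1242 over 1480 to 1656 in tibialis anterior, from 557 over 623 to 749 in diaphragm, and from 2.09 over 20.9 to 55.7 in soleus. Tnni2 ranged from 2395 over 2754 to 3897 CPM in gastrocnemius, from 1634 over 1866 to 1969 in tibialis anterior, from 613 over 726 to 858 in diaphragm, and from 0.328 over 19.7 to 52.6 in soleus. No 2 muscles overlapped in any of the 3 fast genes. How often genes in general fail to overlap between muscles was not counted, here or for the slow genes. Within a muscle the fast genes differed between libraries by little, except in soleus, where the highest library lay far above the lowest.

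**Figure D1:**
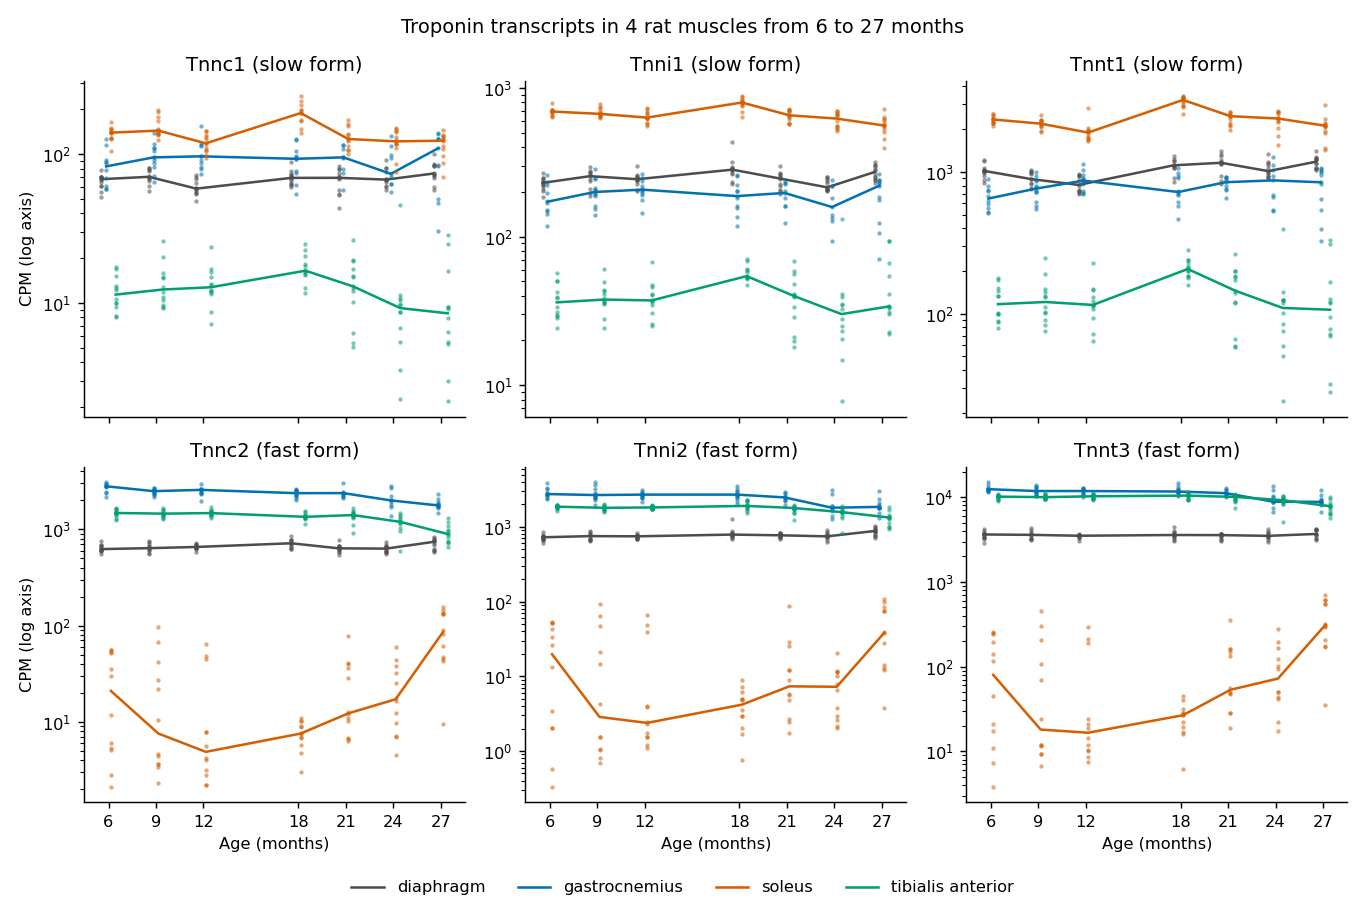
Level of each of the 6 troponin genes in every library, on a log axis of CPM, by muscle and by age in months, with each point a library and the line joining group medians. By median the slow genes are highest in soleus and lowest in tibialis anterior at every age, and Tnni2 in soleus spreads from 0.328 to 52.6 CPM at 6 months where the other muscles stay in narrow bands.

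Differences between muscles at 6 months were tested with limma in a fit of all 28 groups, and a gene was called where the Benjamini-Hochberg adjusted p over all 12784 genes tested was under 0.05 and the change exceeded 1.5-fold. Between tibialis anterior and soleus all 6 troponins were called, against 42.9% of all genes tested. Tibialis anterior held more Tnni2 by 7.70 (SE 0.35), more Tnnt3 by 7.65 (SE 0.38) and more Tnnc2 by 6.64 (SE 0.28) on the log2 scale, which are differences of 208-fold, 201-fold and 99.5-fold. In the slow genes the difference of tibialis anterior from soleus was -4.30 (SE 0.18) for Tnnt1, -4.25 (SE 0.15) for Tnni1 and -3.58 (SE 0.18) for Tnnc1. The gap was thus wider on the fast side than on the slow side of each subunit pair.

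All 6 genes were also called between soleus and diaphragm (background 23.9% of all genes), between tibialis anterior and diaphragm (35.1%) and between soleus and gastrocnemius (45.4%). Between gastrocnemius and diaphragm 4 of 6 were called, against 37.3% of all genes. Gastrocnemius had more Tnnc2 (log2 difference 2.10, SE 0.28), Tnni2 (1.99, SE 0.32) and Tnnt3 (1.83, SE 0.43), and less Tnnt1 (-0.63, SE 0.19). Tnni1 (-0.37, SE 0.15, adjusted p = 0.022) was short of 1.5-fold and was called with total-count scaling (-0.80, adjusted p = 4.66e-07). Between tibialis anterior and gastrocnemius 4 of 6 were called, against 17.3%, and the exceptions were Tnni2 (-0.63, SE 0.33, adjusted p = 0.0932) and Tnnt3 (-0.33, SE 0.44, adjusted p = 0.568), although their libraries did not overlap. That fit shares its estimate of the spread with the scattered soleus libraries. When only tibialis anterior and gastrocnemius entered the fit, an alternative chosen after the data were seen, Tnni2 was called at the same size (-0.64, SE 0.10, limma adjusted p = 4.61e-09), and Tnnt3 (-0.34, SE 0.07, adjusted p = 2.43e-05) stayed under 1.5-fold.

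Stretches before the start sites of the members were read to show what the genes that moved together hold there. RefSeq sequence of the rat build GRCr8 had an entry for 4 of the 6 genes, and Tnnc1 and Tnnt3 are named here only. The 250 bases that end at the start are printed 5′ to 3′ on the strand of the gene, in lower case, with capitals for E-boxes (CANNTG, the letters that myogenic factors such as MyoD bind), CCAAT on either strand (ATTGG when reversed) and TATAAA on either strand (TTTATA when reversed). The fast genes come first and the slow genes after them.
Tnnc2 (fast troponin C, chr3:173935340-173935589, minus strand): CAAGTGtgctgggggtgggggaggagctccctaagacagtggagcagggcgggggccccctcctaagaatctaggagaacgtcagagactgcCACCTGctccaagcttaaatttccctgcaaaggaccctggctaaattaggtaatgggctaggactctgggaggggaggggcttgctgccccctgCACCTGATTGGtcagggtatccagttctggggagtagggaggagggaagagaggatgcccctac
Tnni2 (fast troponin I, chr1:207024240-207024489, plus strand): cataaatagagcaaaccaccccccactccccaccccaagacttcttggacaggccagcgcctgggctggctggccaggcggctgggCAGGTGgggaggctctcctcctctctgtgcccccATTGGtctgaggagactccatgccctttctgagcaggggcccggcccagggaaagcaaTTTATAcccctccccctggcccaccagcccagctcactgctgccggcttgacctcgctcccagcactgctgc
Tnni1 (slow troponin I, chr13:49781279-49781528, plus strand): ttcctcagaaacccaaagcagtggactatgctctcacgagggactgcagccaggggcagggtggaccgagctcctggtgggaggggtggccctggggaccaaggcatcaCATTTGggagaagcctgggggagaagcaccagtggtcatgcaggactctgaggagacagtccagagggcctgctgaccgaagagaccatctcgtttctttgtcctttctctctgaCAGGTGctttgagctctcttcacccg
Tnnt1 (slow troponin T, chr1:78348785-78349034, plus strand): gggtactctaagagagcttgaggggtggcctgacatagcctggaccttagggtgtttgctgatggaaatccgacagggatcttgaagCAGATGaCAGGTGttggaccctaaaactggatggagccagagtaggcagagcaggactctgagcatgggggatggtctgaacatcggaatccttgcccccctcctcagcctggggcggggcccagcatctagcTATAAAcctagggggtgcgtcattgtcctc

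At least 1 E-box was present in all 4 stretches, as in 65.5% of the 33469 promoters of the same length in the RefSeq table. Tnnc2 held 3, and the E-box CACCTG that begins 64 bases before its start runs straight into ATTGG, the reversed CCAAT. Tnni2 held ATTGG as well, beginning 130 bases before the start. Neither slow gene held CCAAT on either strand, which was present in 34.0% of all promoters. TATAAA was found 30 bases before the start of Tnnt1, and reversed in Tnni2 from 72 bases before it, and 12.9% of all promoters had it. The letters of the MCAT element (CATTCC), a MEF2 site and a CArG box were in none of the 4 windows, and 12.1%, 2.96% and 1.497% of all promoters held them. These matches are letters in a short window of GRCr8, while the counts were made on the reference that the methods name B6.0, and no binding was measured. In GRCr8 the Tnni2 model overlaps models of Ifitm10, Ctsd and Syt8, and whether the authors' gene model does so is not given in the sources used here, so the split of reads at Tnni2 is uncertain.

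In soleus the 3 fast troponins were higher at 27 than at 6 months, and the 3 slow ones were slightly lower. At 27 months 3 of 6 genes were called, against 15% of the 12175 genes tested in soleus, and the 3 called were the fast forms, all upward. Tnnt3 ranged from 35.5 CPM over a median of 312 to 696 at 27 months, having ranged from 3.78 over 79.9 to 259 at 6 months. Its log2 change was 2.58 (SE 0.61, 5.99-fold, adjusted p = 0.000223). Tnnc2 ranged from 9.53 over 85.8 to 157 CPM at 27 months and changed by 2.32 (SE 0.48, 4.98-fold, adjusted p = 3.34e-05). In both genes 8 of the 12 old libraries lay above every young one and the rest overlapped with them. Tnni2 ranged from 3.75 over 38.2 to 107 CPM, with 5 of 12 old libraries above all young ones, and changed by 1.93 (SE 0.61, 3.80-fold, adjusted p = 0.00566). Its call depended on the method, since edgeR's quasi-likelihood test gave 1.07 (adjusted p = 0.184) and DESeq2 1.07 (adjusted p = 0.177). Bonferroni adjustment, which the study used, ended all 3 calls of soleus (adjusted p = 0.0907 for Tnnc2, 0.737 for Tnnt3 and 1 for Tnni2). Under Benjamini-Hochberg adjustment the 3 calls held without any single library of 6 or 27 months, with changes between 2.25 and 2.86 for Tnnt3, 2.04 and 2.57 for Tnnc2, and 1.53 and 2.19 for Tnni2.

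The slow troponins of the old soleus changed by far less. Tnni1, the slow inhibitory subunit, ranged from 393 CPM over a median of 558 to 718 at 27 months, and 11 of 12 libraries lay below every 6-month library. Its log2 change of -0.31 (SE 0.06, adjusted p = 4.21e-06) was under the 1.5-fold limit, as were those of Tnnc1 (-0.26, SE 0.10, adjusted p = 0.0217) and Tnnt1 (-0.18, SE 0.07, adjusted p = 0.0334). Tnnt1 ranged from 1433 over 2109 to 2948 CPM, so that the highest old library lay above, and 6 of the 12 below, all young ones. Tnnc1 ranged from 69.9 over 123 to 144 CPM. Even after the rise the fast genes of soleus were far from the levels of a fast muscle: the soleus median as a percentage of that of tibialis anterior went from 0.786% to 3.97% for Tnnt3, from 1.41% to 9.59% for Tnnc2 and from 1.06% to 2.86% for Tnni2.

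**Figure D2:**
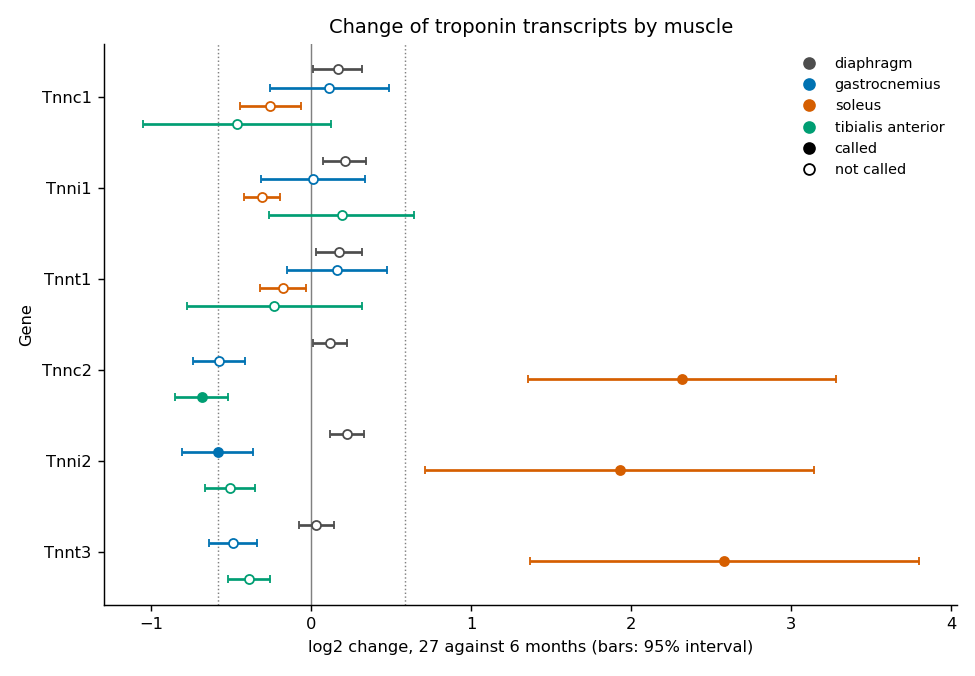
Log2 change from 6 to 27 months of each troponin gene in each muscle, with 95% intervals of the limma fit, filled points for called changes and dotted lines at the 1.5-fold limit. The fast genes of soleus stand at 1.93 to 2.58 with wide intervals, the fast genes of tibialis anterior and gastrocnemius lie below zero, and all 6 genes of diaphragm lie close to zero.

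At the earlier ages the fast genes of soleus were called at none, with 0 of 6 members called at 9 months (background 0.123%), 12 months (0.353%), 18 months (2.84%), 21 months (2.61%) and 24 months (6.51%). At 18 months the libraries lay close together, with Tnnt3 from 6.21 CPM over a median of 26.7 to 44.7 and Tnni2 from 0.747 over 4.17 to 9.00. Of those 12 libraries none reached the median of 6 months. The Tnnt3 medians of 9 and 12 months were lower still, at 18.1 and 16.6 CPM, but single libraries then reached 458 and 294 CPM. The log2 changes at 18 months were -1.15 for Tnnt3 (SE 0.69, adjusted p = 0.229), -1.40 for Tnni2 (SE 0.93, adjusted p = 0.282) and -1.09 for Tnnc2 (SE 0.66, adjusted p = 0.23), so that the wide spread of the young libraries left these differences uncalled. The spread itself narrowed: the SD of log2 CPM over libraries of a group was 1.82 to 2.68 for the 3 fast genes at 6 months, 0.53 to 1.00 at 18 months and 1.16 to 1.51 at 27 months. The slow genes of soleus were higher at 18 months than at 6 months, by 0.45 for Tnnc1 (SE 0.10, adjusted p = 0.000217), 0.42 for Tnnt1 (SE 0.07, adjusted p = 6.77e-06) and 0.18 for Tnni1 (SE 0.06, adjusted p = 0.015), all under 1.5-fold. Tnnt1 then ranged from 2553 over 3207 to 3404 CPM. At 12 months, in libraries of another series, Tnnt1 was lower than at 6 months (-0.29, SE 0.07, limma adjusted p = 0.0125). The slow genes thus did not move steadily with age.

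The soleus libraries were scattered in other fast fibre genes as well, and the library richest in fast troponin did not carry the same myosins at both ages. The 12 young libraries lay apart in Tnnt3, 6 of them from 3.78 to 44.6 CPM and 6 from 115 to 259 CPM. At 6 months the library with the most Tnnt3 (259 CPM) held 2296 CPM of Myh2, the myosin of the slower fast fibres, 72.1 of Myh1, the myosin of intermediate fast fibres, and 0.105 of Pvalb, the calcium buffer parvalbumin of fast fibres. The 6-month library with the least Tnnt3 (3.78 CPM) held 24.8 CPM of Myh2. At 27 months the library with the most Tnnt3 (696 CPM) held 2449 CPM of Myh2, 1181 of Myh1 and 45.0 of Pvalb, and that with the least (35.5 CPM) held 47.0, 52.1 and 1.49. Across the groups the Myh2 median was 537 CPM at 6 and 572 at 27 months, whereas the Myh1 median went from 59.4 to 838 and that of Pvalb from 0.398 to 31.8. Myh2 is named here because its values stood out after they were seen. Its log2 change was 1.20 (SE 0.86, adjusted p = 0.237).

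The rise of the fast troponins in soleus went with a rise of the list of fast fibre genes. At 27 months 7 of 10 listed genes rose and none fell in soleus, with a median log2 change of 2.07 where the median over all genes was 0.02. Over all genes 15% were called there in either direction, which also stands beside the slow list below. Pvalb changed by 6.12 (SE 1.34), Actn3, an actin cross-linker of fast fibres, by 3.55 (SE 0.55), Myh1 by 3.22 (SE 0.63) and Myh4 by 3.08 (SE 0.44). The summed level of the list ranged from 3398 to 7552 CPM at 6 and from 4732 to 14930 at 27 months. Of the 7 slow fibre genes 3 fell and none rose in soleus: Myoz2, a protein of the slow Z-disc, by -0.996 (SE 0.10), the slow tropomyosin gene Tpm3 by -0.92 (SE 0.12) and the slow calcium pump gene Atp2a2 by -0.85 (SE 0.11). The part of fibre make-up in the troponin values was not tested apart from these lists.

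The 3 fast genes of soleus did not keep a fixed ratio. The counts of Tnni2 per count of Tnnt3 had a median of 0.205 at 6 months, with libraries from 0.0801 to 0.301, and a median of 0.0749 at 24 months, with libraries from 0.0583 to 0.149. At 27 months the median was 0.121. In tibialis anterior the same ratio was 0.177 to 0.189 at 6 months and 0.158 to 0.185 at 27 months, and in gastrocnemius 0.207 to 0.264 and 0.181 to 0.253. In diaphragm it was 0.196 to 0.211 and 0.206 to 0.265. Soleus thus had the widest range of the muscles at 6 and at 27 months, at counts as low as 10 reads of Tnni2 per library. At 18 months the diaphragm ranged from 0.200 to 0.402, around a median of 0.214. These ratios are of counts, not per length, and were compared across libraries only.

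In tibialis anterior the fast troponins were lower with age, and Tnnc2 fell past the 1.5-fold limit. At 27 months 1 of 6 genes was called, against 27.6% of the 11754 genes tested there. Tnnc2 ranged from 659 CPM over a median of 894 to 1319, against 1242 over 1480 to 1656 at 6 months, and 11 of 12 old libraries lay below all young ones. Its log2 change was -0.69 (SE 0.08, 0.622-fold, adjusted p = 1.78e-11). Tnni2 ranged from 940 over 1337 to 1834 CPM (log2 change -0.51, SE 0.08, adjusted p = 1.92e-08) and Tnnt3 from 5713 over 7845 to 10074 CPM (-0.39, SE 0.07, adjusted p = 2.25e-07). In each of these, 10 of 12 old libraries lay below all young ones, with changes short of 1.5-fold. The call of Tnnc2 was lost when libraries were scaled by total counts alone (log2 change -0.37), a scaling that moved the median of all genes from 0.02 to 0.34. Over the alternative fits Tnni2 changed by -0.56 to -0.20 and Tnnt3 by -0.43 to -0.08. The size of these falls thus depended on the processing, and the highest adjusted p of those fits for Tnnt3 was 0.0959.

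The slow troponins of tibialis anterior changed more between libraries than between ages. At 27 months Tnnt1 ranged from 28.2 CPM over a median of 107 to 331, Tnni1 from 22.0 over 33.9 to 94.0 and Tnnc1 from 2.18 over 8.51 to 28.8. The log2 changes were -0.23 for Tnnt1 (SE 0.28, adjusted p = 0.45), 0.19 for Tnni1 (SE 0.23, adjusted p = 0.454) and -0.46 for Tnnc1 (SE 0.29, adjusted p = 0.148), and old libraries lay both above and below the young range in each gene. Tnnc1 was called (-0.67, adjusted p = 0.0367) when replicate 5 of 27 months was left out. The SD of log2 CPM of the slow genes over libraries was 0.38 to 0.41 at 6 months, 0.17 to 0.31 at 18 months, 0.97 to 1.04 at 24 months (0.71 to 0.77 without replicate 6 of that age) and 0.71 to 1.11 at 27 months. For the fast genes it went from 0.08 to 0.13 at 6 months to 0.25 to 0.30 at 27 months.

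A single library of tibialis anterior stood far out at 24 months. Replicate 6 held 393 CPM of Tnnt1, 131 of Tnni1 and 45.4 of Tnnc1, where the next highest library of that group held 143 CPM of Tnnt1. It also had the least Tnnt3 (5153 CPM), the most Myh7 (5861 CPM) and the least Myh4 (10443 CPM) of the 12. Its slow and fast genes thus lay at opposite ends of the group. At 24 months 0 of 6 genes were called, against 14.5% of all genes.

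At 18 months 2 of the 6 genes were called in tibialis anterior, against 5.45% of all genes, and both were slow genes that rose. Tnnt1 ranged from 159 CPM over a median of 207 to 280 and changed by 0.82 (SE 0.28, 1.77-fold, adjusted p = 0.0175). Tnni1 ranged from 47.5 over 54.2 to 71.0 CPM and changed by 0.65 (SE 0.22, 1.57-fold, adjusted p = 0.0188). Tnnc1 moved by 0.58 (SE 0.26, adjusted p = 0.0773). The fast genes stood between -0.10 and 0.07 at that age. No member was called at 9 months (background 0.00851%), 12 months (0.196%) or 21 months (6.47%).

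In gastrocnemius the fast troponins were lower with age, Tnni2 past the 1.5-fold limit, and no slow gene was called. At 27 months 1 of 6 genes was called, against 22.8% of the 11865 genes tested, and at 24 months 1 of 6, against 18.8%. Tnni2 ranged from 1333 CPM over a median of 1855 to 3000 at 27 months, against 2395 over 2754 to 3897 at 6 months, with 10 of 11 old libraries below all young ones. Its log2 change was -0.59 (SE 0.11, adjusted p = 4.97e-06) at 27 months and -0.61 (SE 0.11, adjusted p = 6.83e-06) at 24 months. Tnnc2 (-0.58, SE 0.08, adjusted p = 4.79e-09) and Tnnt3 (-0.49, SE 0.08, adjusted p = 8.28e-08) stopped short of 1.5-fold at 27 months, and in both 10 of 11 old libraries lay below all young ones. Tnni2 sat right at the limit: edgeR gave -0.56 and DESeq2 -0.57 at 27 months, both short of it, as at 24 months (both -0.57), and of 21 fits that each left out a library 12 called it. Tnnc2 was likewise called in 6 of those 21 fits. Over all alternative fits at 27 months the changes were -0.65 to -0.30 for Tnni2, -0.64 to -0.29 for Tnnc2 and -0.53 to -0.20 for Tnnt3. With total-count scaling Tnni2 stood at -0.30.

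The slow genes of old gastrocnemius scattered in both directions. Tnnc1 ranged from 30.6 CPM over a median of 110 to 140 at 27 months, Tnni1 from 70.4 over 220 to 264 and Tnnt1 from 326 over 843 to 1063. Their log2 changes lay between 0.01 and 0.16 (SE 0.16 to 0.19), and old libraries lay above as well as below the young range. In these genes the SD of log2 CPM went from 0.27 to 0.40 at 6 months to 0.60 to 0.75 at 27 months. No member was called at 9 months (background 0.143%), 12 months (0.885%), 18 months (4.32%) or 21 months (5.81%).

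In the diaphragm none of the 6 troponins was called at any age. The share of all genes called there was 0.108% at 9, 0.532% at 12, 2.25% at 18, 1.68% at 21, 2.68% at 24 and 7.52% at 27 months. At 27 months the log2 changes lay between 0.03 for Tnnt3 and 0.22 for Tnni2. Tnni2 (0.22, SE 0.05, adjusted p = 0.000501), Tnni1 (0.21, SE 0.07, adjusted p = 0.00879) and Tnnt1 (0.17, SE 0.07, adjusted p = 0.0451) had an adjusted p under 0.05 at changes under 1.5-fold. No interval of the 6 changes at 27 months reached 1.5-fold, the widest bound being 0.34 for Tnni1. Tnni2 ranged from 718 CPM over a median of 882 to 1015 at 27 months, and 8 of 12 libraries lay above every young one.

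The share of the slow gene within each subunit pair put both forms on a single scale. It is the count of the slow gene as a percentage of the counts of the slow and the fast gene, given as a description with no test and not corrected for length. For troponin C in soleus it went from a median of 87.2% at 6 months, with libraries from 71.2% to 98.4%, to 56.3% at 27 months, with libraries from 32.3% to 93.8%. For troponin T it went from 96.8% to 87.1%, and for troponin I from 97.1% to 93.6%. Soleus thus shifted toward the fast form in all 3 subunits, with the largest drop of the median share in troponin C. That order holds on the percent scale, on which troponin I and T started higher. On the log2 scale the rise of the fast gene was 2.58 for Tnnt3, 2.32 for Tnnc2 and 1.93 for Tnni2. At 18 months the troponin C share of soleus was held between 94.3% and 98.4% in all 12 libraries.

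The limb muscles that are mainly fast moved the other way or stayed. In gastrocnemius the slow share had medians of 3.00% at 6 and 5.46% at 27 months for troponin C, 5.64% and 8.70% for troponin I, and 5.26% and 8.17% for troponin T. In tibialis anterior the medians were 0.756% and 0.803%, 1.87% and 2.77%, and 1.16% and 1.18%, but the highest library for troponin C rose from 1.35% to 4.18%. In diaphragm they were 9.26% and 8.85%, 23.9% and 23.8%, and 21.8% and 24.0%. The ranges of 6 and 27 months overlapped in every muscle and subunit.

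**Figure D3:**
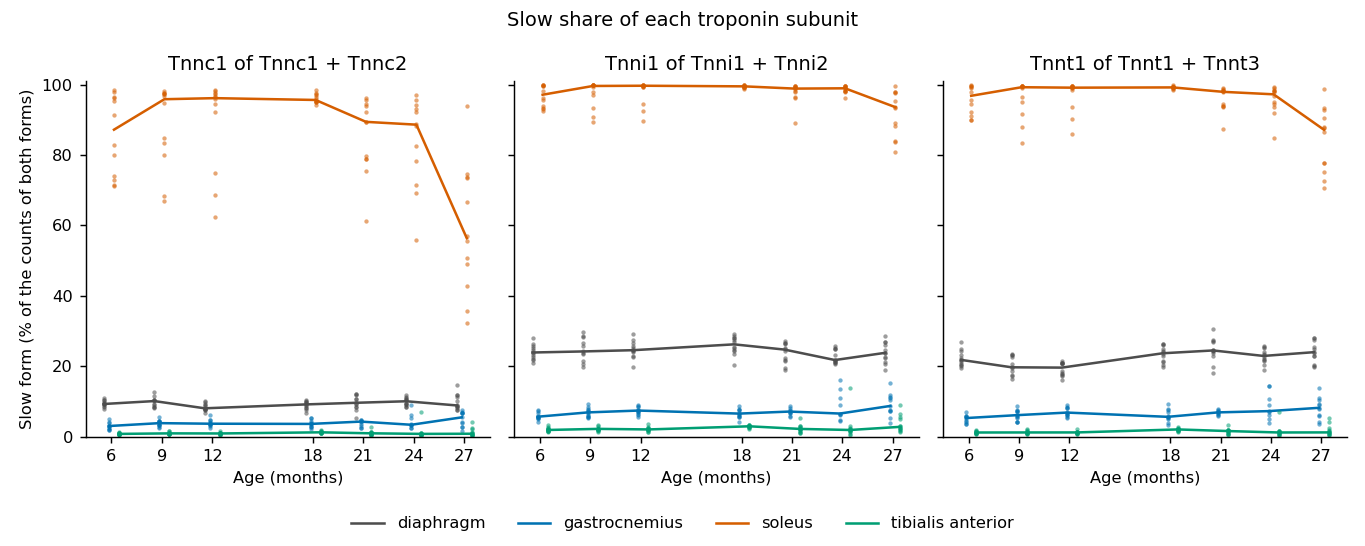
Slow share of each troponin subunit, the slow gene's counts as a percentage of slow plus fast counts, by muscle and age in months, with each point a library and lines joining medians. The troponin C share of soleus falls from a median of 87.2% at 6 to 56.3% at 27 months with a wide scatter, and diaphragm stays near 9% for troponin C.

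Whether the change with age differed between muscles was tested directly in the fit of all groups. Against tibialis anterior, soleus stood apart in all 3 fast genes: the change of tibialis anterior minus that of soleus was -2.99 for Tnnc2 (SE 0.38, adjusted p = 1.89e-12), -2.97 for Tnnt3 (SE 0.53, adjusted p = 7.45e-07) and -2.42 for Tnni2 (SE 0.45, adjusted p = 2.00e-06). With 3 of 6 called the background was 15.8% of all genes. Soleus minus gastrocnemius also had 3 of 6 called, against 14.5%, with 3.06 for Tnnt3 (SE 0.56), 2.88 for Tnnc2 (SE 0.40) and 2.497 for Tnni2 (SE 0.48). Soleus minus diaphragm had 3 of 6 called, against 11.9%, with 2.49 for Tnnt3 (SE 0.52), 2.14 for Tnnc2 (SE 0.37) and 1.64 for Tnni2 (SE 0.45, adjusted p = 0.0017). The last of these was lost with edgeR (0.79, adjusted p = 0.217) and with Bonferroni adjustment, which the study used. These 3 contrasts share the soleus libraries and are not independent of each other. In fits of 2 muscles at a time, chosen after the data were seen, the 3 fast genes stayed called in each contrast with soleus, at larger SE. Tibialis anterior minus soleus then had an SE of 0.499 for Tnnc2, 0.73 for Tnnt3 and 0.59 for Tnni2 (limma adjusted p = 2.04e-07, 0.00043 and 0.000391). Soleus minus diaphragm for Tnni2 was 1.68 (SE 0.57, limma adjusted p = 0.0129). In the slow genes none of the 3 contrasts with soleus was called in the fit of all groups. The nearest was Tnni1 in tibialis anterior minus soleus (0.51, SE 0.21, adjusted p = 0.0449), which stopped short of 1.5-fold and was called with total-count scaling (0.67, adjusted p = 0.00602) and with edgeR (0.61, adjusted p = 0.0129).

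Among the muscles other than soleus the differences in change were smaller. Tibialis anterior minus diaphragm had 2 of 6 called, against 20.3%, with -0.85 for Tnnc2 (SE 0.37, adjusted p = 0.0468) and -0.67 for Tnnc1 (SE 0.26, adjusted p = 0.0256). With edgeR neither was called (adjusted p = 0.0688 for Tnnc2 and 0.235 for Tnnc1). Gastrocnemius minus diaphragm had 0 of 6 called, against 21.6%, and tibialis anterior minus gastrocnemius 0 of 6, against 7.32%. In fits of 2 muscles at a time, chosen after the data were seen, gastrocnemius minus diaphragm was called for Tnnc2 (-0.76, SE 0.09) and Tnni2 (-0.87, SE 0.12), and tibialis anterior minus diaphragm for Tnni2 (-0.77, SE 0.10) as well as for Tnnc2 (-0.84, SE 0.10). Those estimates matched the ones of the larger fit, which had an SE of 0.37 to 0.45 for them. Tibialis anterior and gastrocnemius were not shown to differ in the change of any fast gene in either fit.

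The 6 genes also varied together between libraries of the same group. Pearson's r of log2 CPM, taken after the mean of each age was removed, was 0.97 for all 3 pairs of fast genes over the 84 soleus libraries. It was 0.86 to 0.95 over the 85 of tibialis anterior, 0.63 to 0.81 over the 83 of diaphragm and 0.36 to 0.92 over the 73 of gastrocnemius. Pairs of slow genes gave 0.90 to 0.98 in tibialis anterior, 0.78 to 0.94 in gastrocnemius, 0.56 to 0.74 in soleus and 0.49 to 0.66 in diaphragm. A slow with a fast gene gave -0.56 to -0.36 in tibialis anterior, -0.20 to -0.09 in soleus, and values on both sides of zero in diaphragm and gastrocnemius. These are descriptions, as the genes share each library's depth and dissection, and the soleus values rest in part on the young libraries, which lie apart in a high and a low set.

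The genes most like each troponin were sought among 10403 genes tested in all muscles. By the mean over the 4 muscles of r within groups, over 325 libraries, Tnnt3 was most like Tpm1 (0.90), Tnni2 (0.87) and Mylpf, the fast regulatory light chain (0.84). Tnni2 was most like Tpm1 and Tnnt3 (both 0.87) and the Z-disc gene Myoz1 (0.84), and Tnnc2 was most like Tpm1 (0.83), Tnnt3 (0.79) and Tnni2 (0.75). The tropomyosin gene Tpm1 thus headed the list of every fast troponin. On the slow side Tnnc1 was most like Myl2, the slow regulatory light chain (0.88), Tpm3 (0.84) and Myh7 (0.82), Tnnt1 was most like Tpm3 (0.86), Tnnc1 and Myh7 (both 0.80), and Tnni1 was most like Myh7 (0.81), Atp2a2 (0.77) and Tnnc1 (0.76).

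Over the 28 group means, where differences between muscles dominate, the fast troponins were nearest to each other (r 0.996 to 0.997), followed by Cln6 for Tnnc2 (0.989), Myh1 for Tnni2 (0.991) and Mylpf for Tnnt3 (0.993). Cln6 did not follow Tnnc2 within groups, where r was -0.27 to 0.15. Tnni1 and Tnnt1 were nearest to each other (0.990), Tnni1 then to Magea11 (0.986) and Dbn1 (0.984), and Tnnt1 to Myh7 (0.974) and PCOLCE2 (0.972). Tnnc1 was nearest to Myl2 (0.994), LOC102546391 (0.990) and Tnnt1 (0.969).

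The partners of troponin on the thin filament were given as a list of 20 genes, of which 17 were listed in the files; Neb, Lmod3 and Xirp1 were not analysed here. At 27 months 7 of the 16 tested rose and 3 fell in tibialis anterior (27.6% of all genes called in either direction), 5 of 16 rose and 2 fell in gastrocnemius (22.8%), 4 of 17 rose and 2 fell in soleus (15%), and 2 of 17 rose in diaphragm (7.52%). Tnnt2, the troponin T of heart and of immature muscle, rose in all 4 muscles, by 3.93 (SE 0.50) in tibialis anterior, 2.97 (SE 0.35) in gastrocnemius, 0.94 (SE 0.27) in diaphragm and 0.88 (SE 0.20) in soleus. Actc1, the cardiac actin that developing muscle also makes, rose by 3.17 (SE 0.29), 2.03 (SE 0.23), 1.26 (SE 0.26) and 1.24 (SE 0.22) in the same order. The cardiac form of troponin I, Tnni3, had a 27-month median of 0.0445 CPM in tibialis anterior, 0.143 in gastrocnemius, 0.712 in soleus and 1.68 in diaphragm. These medians are levels, whereas the values of Tnnt2 are changes, so the genes are not compared here. Which cells the Tnnt2 reads came from was not tested.

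Tropomyosins, the rods on which troponin sits, moved as well. Tpm1 changed by 1.00 (SE 0.24) in soleus, and by -0.97 (SE 0.12) in gastrocnemius and -1.01 (SE 0.13) in tibialis anterior, the same directions as the called fast troponins. Tpm3 changed by -0.92 (SE 0.12) in soleus and by -1.10 (SE 0.24) in tibialis anterior. In tibialis anterior Klhl40, a stabiliser of thin filament proteins, rose by 1.13 (SE 0.07) and Lmod2, which lengthens thin filaments, by 1.12 (SE 0.15). In soleus Tmod1, which caps the pointed end of the filament, rose by 1.44 (SE 0.12), and in gastrocnemius Klhl41, a relative of Klhl40, by 0.83 (SE 0.07). The list's median log2 change was 0.31 in tibialis anterior, 0.23 in gastrocnemius, -0.13 in soleus and 0.04 in diaphragm, where the medians of all genes were 0.02, 0.04, 0.02 and 0.00261.

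Genes that muscle switches on when it loses its nerve were also counted. Of the 11 listed, 11 rose in tibialis anterior, in gastrocnemius and in soleus, and 10 in diaphragm, with median log2 changes of 4.49, 3.34, 2.25 and 1.25. For this list and the next, the share of all genes called in either direction was 27.6%, 22.8%, 15% and 7.52% in the same order. Chrng, the fetal acetylcholine receptor subunit, rose by 7.16 (SE 1.05) in tibialis anterior, 5.71 (SE 0.60) in gastrocnemius, 3.73 (SE 0.36) in soleus and 3.68 (SE 0.52) in diaphragm. Of the 3 developmental myosin genes 3 rose in soleus and in tibialis anterior, and 2 in the other muscles. Their part in the troponin values was not tested.

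The fast fibre list moved opposite ways in the limb muscles. Of its 10 genes 5 fell in tibialis anterior and 4 in gastrocnemius, none rose there, and the median log2 change was -0.44 in both. For this list and the slow list, the share of all genes called in either direction was 27.6% in tibialis anterior, 22.8% in gastrocnemius and 7.52% in diaphragm. Actn3 changed by -1.504 (SE 0.17) and -1.39 (SE 0.14), Myh4 by -1.497 (SE 0.18) and -1.27 (SE 0.18), the fast calcium pump gene Atp2a1 by -1.14 (SE 0.14) and -1.32 (SE 0.12), and Myoz1 by -1.08 (SE 0.14) and -1.15 (SE 0.13). In diaphragm Myh4 alone was called, at 1.37 (SE 0.48), near the share over all genes. Of the 7 slow fibre genes 4 fell and 1 rose in tibialis anterior, the rise being that of Casq2, the slow calsequestrin (1.22, SE 0.23), and Myh7 changed by -1.07 (SE 0.30). In gastrocnemius Casq2 alone of the slow list was called (1.04, SE 0.16), below the share over all genes.

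Markers of cells other than fibres are given beside the share of all genes called at 27 months, which was 27.6% in tibialis anterior, 22.8% in gastrocnemius, 15% in soleus and 7.52% in diaphragm. All 6 macrophage genes rose in tibialis anterior, where their sum ranged from 64.0 to 108 CPM at 6 and from 124 to 266 at 27 months, and in gastrocnemius, where it ranged from 129 to 204 and from 216 to 384. In soleus 1 of 6 rose, near the share over all genes, with sums of 208 to 411 and 331 to 464 CPM, and in diaphragm none. Of the 6 adipocyte genes 4 rose in each limb muscle, with sums in soleus of 43.5 to 181 CPM at 6 and 160 to 412 at 27 months, while 1 fell in diaphragm. Of the 5 fibroblast genes 3 fell in diaphragm, 2 in gastrocnemius and 2 in soleus, and none was called in tibialis anterior. Myl7, an atrial light chain, was at 0 in every 6-month and 27-month library of diaphragm, soleus and tibialis anterior. Of the 7 heart muscle genes 3 passed the filter in each muscle but soleus, where 4 did. Tnnt2 was the only riser, while 2 fell in tibialis anterior, 1 in gastrocnemius, 1 in soleus and none in diaphragm. Of the 5 T cell genes those that passed the filter, 2 in each limb muscle and 4 in diaphragm, rose in 2 cases in tibialis anterior, gastrocnemius and diaphragm, and in soleus 1 rose and 1 fell. Of the 6 Schwann cell genes 1 rose in tibialis anterior, and 1 rose and 2 fell in gastrocnemius. Of 5 red cell genes 1 rose in tibialis anterior and 1 in soleus. The Schwann cell and red cell counts of tibialis anterior were below the share over all genes, and nothing is read from them. The part of these cells in the troponin values was not tested.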

How the data were processed

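RNA was measured in 325 bulk libraries of 4 muscles. The authors deposited raw counts per gene, made from stranded total RNA libraries with ArrayStudio, the rat reference that the study's methods name B6.0, and an in-house gene model based on RefSeq; the pipeline version is not given in the sources used here. Lines of 1 symbol were summed, low counts were filtered (minimum count 10, minimum total 15), and counts were scaled by TMM (edgeR 4.0.16) and tested with limma 3.58.1 (voom, two-sided, R 4.3.3), with 1 fit of all 7 ages for each muscle and 1 fit of all 28 groups between muscles. Calls needed a Benjamini-Hochberg adjusted p below 0.05 together with more than 1.5-fold change. Bonferroni adjustment, as in the study, edgeR's quasi-likelihood test and DESeq2 1.42.0 were among the alternatives. CPM values are TMM-scaled over all libraries (prior count 0.5 on the log scale). The p-values measure the spread between samples, and by the study's sample table the samples of a muscle number as many as its animals. The labels do not tell which samples of different muscles share a rat. Groups came from the labels. Named were the 6 troponins, at most 4 genes per list and muscle with the largest called change, and the 3 genes most like each troponin. The members and the lists were chosen with earlier results of these data known. Scripts were tested on simulated data. Sequences are from RefSeq (GRCr8), read with Python 3.11.15. Values of about 10 reads, as in soleus Tnni2, carry the most counting error.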

Additional observations from a re-analysis of the deposited data

Results flagged for a closer look

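Tnnc2 in gastrocnemius at 21 months had a highest library, at 3022 CPM, that stood apart from the other 8, whose lowest was 2115 and whose group median was 2380. Of the groups of at most 10 libraries 18 values were looked at in this way, and chance alone sets apart about 1 in 20.

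The change from 6 to 27 months differed between muscles, by a direct test of the difference, in 11 cases. For soleus minus diaphragm the log2 differences were 2.14 for Tnnc2, 1.64 for Tnni2 and 2.49 for Tnnt3. For soleus minus gastrocnemius they were 2.88 for Tnnc2, 2.497 for Tnni2 and 3.06 for Tnnt3. For tibialis anterior minus soleus they were -2.99 for Tnnc2, -2.42 for Tnni2 and -2.97 for Tnnt3. For tibialis anterior minus diaphragm they were -0.67 for Tnnc1 and -0.85 for Tnnc2. The contrasts with soleus share its libraries, and the fast genes of soleus spread widest.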

How the results depend on the processing

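Most alternatives kept the direction and the call. The number of the 6 genes called at 27 months in gastrocnemius was 1, and became 0 with total-count scaling, edgeR, DESeq2 and the replicate block, 2 with no filter on low counts, and 0 to 2 when single libraries were left out. In soleus it was 3, and 0 with Bonferroni adjustment (Tnnc2 adjusted p = 0.0907 and Tnnt3 0.737), which keeps 538 of the 905 calls over all genes in diaphragm and 1083 of the 1825 in soleus. In tibialis anterior it was 1, and 0 with total-count scaling, and 1 to 2 when single libraries were left out. For the change of tibialis anterior minus that of diaphragm it was 2, and 1 with RLE size factors and 0 with total-count scaling, edgeR and Bonferroni adjustment. For the change of gastrocnemius minus that of diaphragm it was 0, and 2 with only those muscles in the fit. At 6 months Bonferroni left 2 of 4 for gastrocnemius minus diaphragm and 3 of 6 for tibialis anterior minus diaphragm, and at 18 months in tibialis anterior it ended both calls. Over all genes Bonferroni left 1674 of 2760 calls for the change of gastrocnemius minus diaphragm, 696 of 1516 for soleus minus diaphragm, 1417 of 2590 for tibialis anterior minus diaphragm, 872 of 1848 for soleus minus gastrocnemius, 516 of 936 for tibialis anterior minus gastrocnemius and 952 of 2022 for tibialis anterior minus soleus. The cause was not tested for these.

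Signs turned only in changes that were not called. Tnni1 in gastrocnemius at 27 months was -0.010 with no filter and -0.052 to 0.15 when single libraries were left out, and Tnnt1 in tibialis anterior was 0.10 with total-count scaling and 0.090 with edgeR and DESeq2. At 6 months Tnnc1 of gastrocnemius minus diaphragm was -0.13 with total-count scaling. In the differences of change, total-count scaling turned gastrocnemius minus diaphragm to 0.20 for Tnnc1, 0.051 for Tnni1 and 0.24 for Tnnt1, tibialis anterior minus diaphragm to 0.27 for Tnni1, and tibialis anterior minus soleus to 0.13 for Tnnt1. With edgeR these were 0.028 for Tnnt1 in gastrocnemius minus diaphragm, 0.048 for Tnni1 in tibialis anterior minus diaphragm, and 0.10 for Tnnc1 and 0.25 for Tnnt1 in tibialis anterior minus soleus. With total-count scaling the median of all changes at 27 months became 0.04 in diaphragm, 0.32 in gastrocnemius, 0.16 in soleus and 0.34 in tibialis anterior.

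The replicate numbers repeat across ages and muscles. Libraries of an age with the same number in 2 muscles had a median r of 0.01 to 0.17 in their deviations, with single pairs down to -0.56, which is under the limit set for every pair, and the labels do not say what a number marks. A library's best match was its own number in 47 of 84 cases for soleus and tibialis anterior, 44 of 83 for diaphragm and tibialis anterior, 38 of 83 for diaphragm and soleus, and 14 to 19 of 72 or 73 with gastrocnemius, against a median r of -0.01 to -0.02 for other numbers. Each library was matched among the 9 to 13 libraries of a group, and the rate by chance was not counted. These values hint that some numbers may mark a shared animal, more so outside gastrocnemius. The fits without the block were kept, and between muscles they treat all libraries as separate. In the fits of a single muscle the replicate block was a fixed term for the number across ages, so it cannot address muscles that share an animal. With it Tnni2 of soleus was 1.16 (limma adjusted p = 0.135) and Tnni2 of gastrocnemius -0.56, neither called. The number of members called in soleus was then 2. In the fit of all groups the block was age together with number, and its consensus correlation was 0.066. With that block each contrast of change with soleus kept 3 members called, and tibialis anterior minus diaphragm kept 2. The slow share per coding length was not run, as no coding lengths were used here.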
